A study of Mus musculus with 8 samples.

Results

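This account covers 9 receptors that steer the movement of myeloid cells: Cxcr2, Cxcr4, Ccr1, Ccr2, Ccrl2, Cx3cr1, Fpr1, Fpr2 and C5ar1. They were picked by symbol from the 24421 genes counted in each library, and all 9 passed the filter on low counts, which kept 12623 genes. RNA was sequenced from mouse bone marrow leukemia cells (strain C57BL/6) transformed by MLL-AF9, a fusion oncogene of acute leukemia, and sorted for high c-KIT. The KO group (2 libraries) came from Ikzf2Δ/Δ mice and the WT group (2 libraries) from Ikzf2f/f mice, whose Ikzf2 gene, encoding the zinc finger factor Helios, carries the floxed but intact allele. MLL-AF9, the thawing of frozen marrow and the c-KIT sort were common to both groups. The labels give no age, sex, Cre driver or clonal origin, and do not say whether replicates came from separate mice, so the p-values measure only the spread between these libraries.

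Chemokine receptors are membrane proteins with a bundle of helices that couple to inhibitory G proteins and turn a gradient of ligand into directed movement through PI3K-gamma and RAC. In bone marrow they set where blood cells sit: CXCR4 holds stem cells, progenitors and immature neutrophils near stromal cells that make CXCL12, CXCR2 draws mature neutrophils out into blood, and CCR2 does so for monocytes. The formyl peptide receptors and the C5a receptor are related proteins that respond to bacterial peptides and to activated complement, and they are found mainly on granulocytes and monocytes. Several of these receptors serve as markers of myeloid maturation, and the study's title frames the KO and WT comparison as one of self-renewal and myeloid differentiation.

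Library depth ran from 16006081 to 19286090 gene counts, at which 3 counts of a gene equal 0.150 to 0.186 CPM. CPM is a gene's count per 1000000 counts of its library, scaled here with edgeR's TMM factors. Ikzf2 itself stood at 10.9 and 26.5 CPM in the KO libraries, against 283 and 271 CPM in the WT libraries. Kit, the sorted receptor, had 236 and 376 CPM in KO and 216 and 330 CPM in WT. KO replicate 1 stands apart from the other 3 libraries in sex-linked genes. The X-inactivation RNA Xist had 833 and 0.352 CPM in KO and 0.600 and 0.477 CPM in WT, and the Y-linked gene Ddx3y had 0.062 and 70.1 CPM in KO and 110 and 102 CPM in WT. The part of this difference in the receptor values was not tested, and each receptor's fold change without that library is given below.

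The promoters of 4 receptors are shown because these had the smallest unadjusted p in the comparison of KO with WT. Each window covers 250 bases before and 50 bases after a start position, read in the direction of transcription from RefSeq sequence of build GRCm38.p6. That position is the start of the gene for Cxcr2, Fpr2 and Cx3cr1. For C5ar1, which spans chr7:16246743-16259540, it lies inside the gene, so most of that window is within the gene's span. Capitals mark the core letters of Ikaros family motifs, GGGAA or its reverse complement TTCCC, searched on both strands. The windows lie at chr7:16259289-16259588 (C5ar1, minus strand), chr1:74153744-74154043 (Cxcr2, plus strand), chr17:17887574-17887873 (Fpr2, plus strand) and chr9:120068247-120068546 (Cx3cr1, minus strand). The other 5 genes span chr1:128588199-128592299 (Cxcr4), chr9:123962126-123968692 (Ccr1), chr9:124101918-124109140 (Ccr2), chr9:111054834-111057518 (Ccrl2) and chr17:17876471-17883939 (Fpr1) in the same build.
C5ar1: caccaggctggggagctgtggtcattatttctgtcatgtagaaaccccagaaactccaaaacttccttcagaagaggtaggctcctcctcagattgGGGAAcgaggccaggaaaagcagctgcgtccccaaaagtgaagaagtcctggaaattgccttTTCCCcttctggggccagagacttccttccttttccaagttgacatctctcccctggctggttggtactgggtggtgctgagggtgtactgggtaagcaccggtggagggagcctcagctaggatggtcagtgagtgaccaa
Cxcr2: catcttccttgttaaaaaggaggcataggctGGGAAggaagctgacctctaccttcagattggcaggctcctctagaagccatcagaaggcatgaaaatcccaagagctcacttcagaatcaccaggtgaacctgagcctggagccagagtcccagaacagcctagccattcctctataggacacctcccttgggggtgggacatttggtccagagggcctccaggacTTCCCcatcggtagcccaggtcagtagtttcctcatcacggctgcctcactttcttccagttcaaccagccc
Fpr2: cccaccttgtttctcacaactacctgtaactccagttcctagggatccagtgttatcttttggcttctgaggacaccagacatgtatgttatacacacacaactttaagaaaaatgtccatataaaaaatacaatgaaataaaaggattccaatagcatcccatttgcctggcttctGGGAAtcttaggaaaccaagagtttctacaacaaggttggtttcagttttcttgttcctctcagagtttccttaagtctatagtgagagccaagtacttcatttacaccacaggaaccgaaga
Cx3cr1: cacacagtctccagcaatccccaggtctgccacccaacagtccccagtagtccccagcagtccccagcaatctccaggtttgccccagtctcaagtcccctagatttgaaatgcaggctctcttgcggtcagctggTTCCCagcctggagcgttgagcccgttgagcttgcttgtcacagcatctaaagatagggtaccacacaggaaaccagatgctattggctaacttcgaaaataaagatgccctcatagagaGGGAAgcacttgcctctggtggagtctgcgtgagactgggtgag
C5ar1, Cxcr2 and Cx3cr1 hold the letters at 2 places each and Fpr2 at 1. In the first RefSeq window of each receptor the letters occur in 7 of 9, and they occur in 62.7% of all 32851 promoter windows of this length. The windows of Ccr1 and Ccr2 hold none, and that of Ccr2, chr9:124101933-124102232, lies inside the gene. These matches are short runs of letters, and no binding was measured in the files used here.

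Both receptors of CXC chemokines had higher values in the KO libraries, by unlike amounts. Cxcr4, the CXCL12 receptor, had 423 and 353 CPM in the KO libraries and 304 and 223 CPM in the WT libraries, from raw counts of 6834 and 6011 in KO and 6079 and 4197 in WT. The groups did not overlap, with the lower KO library next to the higher WT library. The log2 fold change of Cxcr4 was 0.56 (SE 0.26, with 2 libraries per group; adjusted p = 0.715 by edgeR's quasi-likelihood test over all genes), and it ran from 0.36 to 0.80 with 1 library left out, at 0.42 in the absence of KO replicate 1. Cxcr2, the neutrophil receptor for CXCL1 and CXCL2, had 13.1 and 6.46 CPM in KO, against 0.700 and 3.08 CPM in WT. The groups did not overlap, and WT replicate 1 held only 14 reads. Its log2 fold change of 2.37 (SE 0.85) had an adjusted p of 0.595 by edgeR and of 0.117 by DESeq2. Without WT replicate 2 it was 3.80, and DESeq2 then called it (adjusted p = 0.00185). Without WT replicate 1 it was 1.67 (DESeq2 adjusted p = 0.774), and it was 1.77 in the absence of KO replicate 1.

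**Figure D1:**
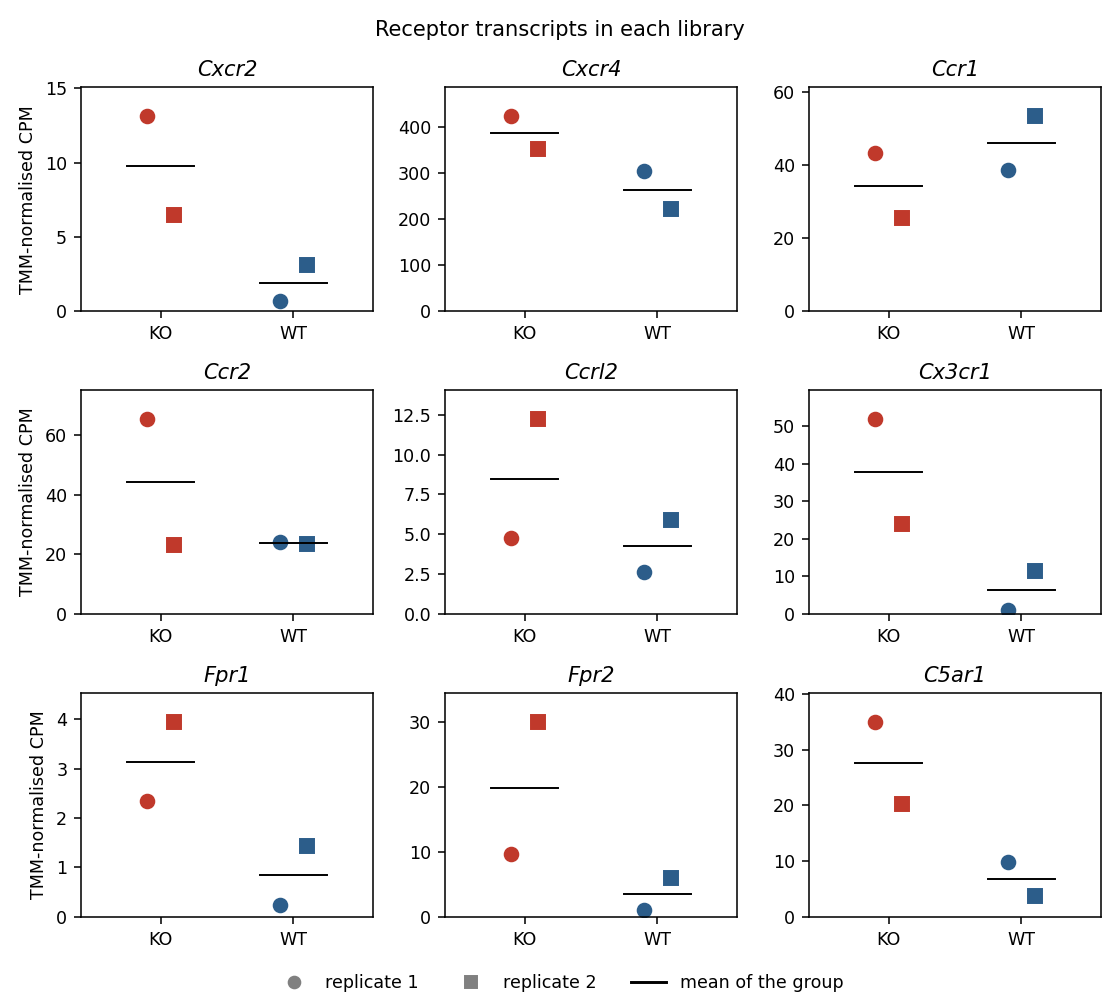
TMM-normalised CPM of each receptor (vertical axis, from 0) in the KO and WT libraries, with circles for replicate 1, squares for replicate 2 and a line at each group's mean (n = 2). In 6 of 9 panels both KO points lie above both WT points, and in the panels of Ccr1, Ccr2 and Ccrl2 the groups overlap.

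Among the receptors of CC chemokines and fractalkine, Cx3cr1 had the largest fold change. It encodes the fractalkine receptor of monocytes and their precursors, and it had 51.8 and 24.0 CPM in KO, against 1.20 and 11.5 CPM in WT, from 838 and 408 reads in KO and 24 and 216 in WT. The KO libraries were both higher, while the WT libraries differed from each other by 3.14 on the log2 scale. The log2 fold change was 2.58 (SE 1.07; edgeR adjusted p = 0.675, DESeq2 adjusted p = 0.103). Leaving out WT replicate 2 made it 4.98, which passed edgeR (adjusted p = 0.00355) and DESeq2 (adjusted p = 1.38e-10), with the lone WT library assumed to vary like the KO libraries. Without WT replicate 1 it was 1.72 and passed neither, as was so for the 1.92 obtained in the absence of KO replicate 1 (DESeq2 adjusted p = 0.956). KO minus WT in log2 CPM was 5.31 between the libraries numbered 1 and 1.06 between those numbered 2.

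Ccr2, the CCL2 receptor through which monocytes leave the marrow, had 65.1 and 23.0 CPM in KO and 24.0 and 23.4 CPM in WT. KO replicate 1 alone was high, and KO replicate 2 lay just under both WT libraries. The log2 fold change of 0.90 (SE 0.51; edgeR adjusted p = 0.791) rested on KO replicate 1: leaving it out gave -0.039. Leaving out KO replicate 2 instead gave 1.46, which DESeq2 called (adjusted p = 0.0152). Ccr1, a receptor for CCL3 and CCL9 among others, was the only one of the 9 with a fold change below 0. It had 43.2 and 25.4 CPM in KO and 38.5 and 53.3 CPM in WT, so the groups overlapped (log2 fold change -0.42, SE 0.34; edgeR adjusted p = 0.882). That estimate was -0.85 once KO replicate 1 was dropped and -0.089 once KO replicate 2 was. Ccrl2 encodes an atypical receptor that binds chemerin and presents it to other cells without classical signalling. Its values of 4.76 and 12.2 CPM in KO and 2.65 and 5.89 CPM in WT overlapped (log2 fold change 0.99, SE 0.69; edgeR adjusted p = 0.852), and its fold change was 0.16 without KO replicate 2 and 1.52 in the absence of KO replicate 1.

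Of the receptors for other attractants, C5ar1 was the one called by any test over all 4 libraries. It encodes the main receptor for the complement fragment C5a and had 34.9 and 20.2 CPM in KO, against 9.80 and 3.77 CPM in WT. In counts these were 564 and 344 reads in KO and 196 and 71 in WT. The groups did not overlap, with the highest value in KO replicate 1 and the lowest in WT replicate 2. C5ar1 rose by DESeq2 (adjusted p = 0.0282) and did not pass edgeR (log2 fold change 2.02, SE 0.57, adjusted p = 0.482) or voom (adjusted p = 0.490). DESeq2 kept the call without WT replicate 1 (adjusted p = 0.00154) and lost it without WT replicate 2 (0.281), KO replicate 1 (0.725) and KO replicate 2 (0.0617). Its log2 fold change stayed between 1.50 and 2.87 in the edgeR fits with 1 library left out, at 1.57 in the absence of KO replicate 1. KO minus WT in log2 CPM was 1.82 for the libraries numbered 1 and 2.39 for those numbered 2.

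Fpr2, a formyl peptide receptor that also binds annexin A1, had 9.65 and 30.0 CPM in KO, against 1.05 and 6.05 CPM in WT. Here KO replicate 2 was the higher KO library, opposite to Cxcr2, Cx3cr1 and C5ar1. The log2 fold change was 2.48 (SE 0.98; edgeR adjusted p = 0.652, DESeq2 adjusted p = 0.121). Leaving out KO replicate 2 gave 1.44, and dropping KO replicate 1 gave 3.08. Leaving out WT replicate 2 gave 4.25, which DESeq2 called (adjusted p = 3.13e-05). Fpr1, the high-affinity receptor for formylated bacterial peptides, was sparse, with 38 and 67 reads in KO and 5 and 27 in WT. That gave 2.35 and 3.93 CPM in KO and 0.250 and 1.43 CPM in WT, without overlap (log2 fold change 1.90, SE 0.96; edgeR adjusted p = 0.756). The estimate for Fpr1 was 1.13 when WT replicate 1 was dropped, 3.63 when WT replicate 2 was, and 2.22 in the absence of KO replicate 1. Fpr1 and Fpr2 lie 3885 bases apart on chromosome 17, and both had their highest value in KO replicate 2 and their lowest in WT replicate 1.

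Counted together, 6 of 9 receptors (Cxcr2, Cxcr4, Cx3cr1, Fpr1, Fpr2 and C5ar1) had both KO values above both WT values, as did 18.1% of the 12623 genes tested. The reverse order held for 0 of 9, against 19.1% of genes. With 1 library left out the count was 7 without KO replicate 1 (background 35.5%), 7 without KO replicate 2 (38.1%), 6 without WT replicate 1 (30.5%) and 7 without WT replicate 2 (30.6%). Genes without overlap keep that order when a library is removed. The count could therefore only stay or rise, and it does not show stability. DESeq2 called 1 of 9 as higher and 0 as lower, where it called 1.56% of 13422 genes as higher and 1.07% as lower. By edgeR 0 of 9 were called, as were 0% of all genes, while 2 of 9 receptors (C5ar1 and Cxcr2) and 968 of 12623 genes had an unadjusted p under 0.05. The median log2 fold change of the 9 was 1.90, against -0.0043 over all genes tested. The 9 were chosen with earlier results of these data known, so the comparisons with all genes are descriptive only. Replicates of 1 group also differed: WT replicate 2 exceeded WT replicate 1 in 6 of 9, with a median difference of 1.12 in log2 CPM.

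**Figure D2:**
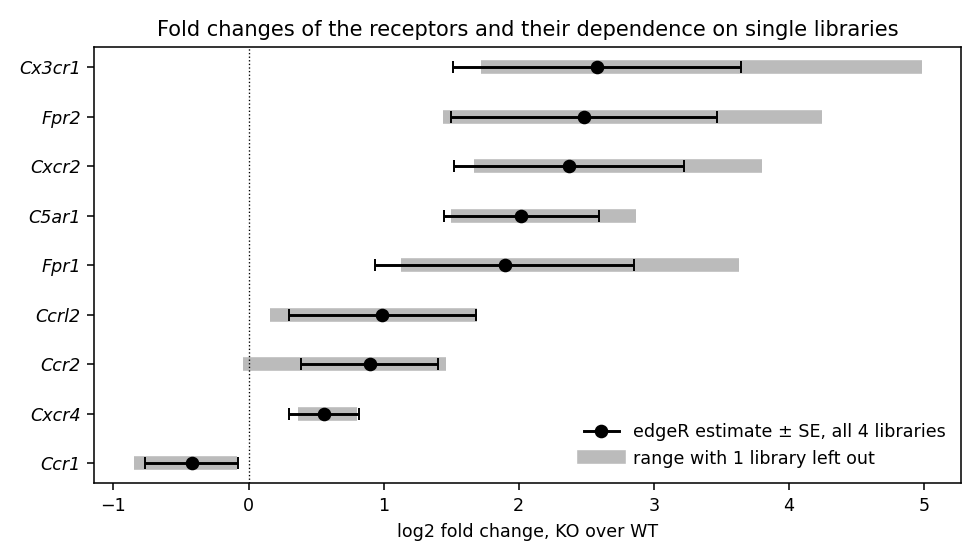
Log2 fold change of KO over WT for each receptor by edgeR (points, with SE as bars; n = 2 per group) and its range when 1 library is left out (grey). The estimate is above 0 for 8 of 9, and the range crosses 0 for Ccr2, whose value is -0.039 without KO replicate 1.

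Markers of maturing myeloid cells also differed between the libraries. For scale, 18.1% of all genes tested were higher in both KO libraries, and 6243 of 12623 had a fold change above 0. DESeq2 called 1.56% of 13422 genes as higher and 1.07% as lower. Summed over 10 neutrophil genes, CPM was 13339 and 19602 in KO and 1101 and 4310 in WT, and 7 of 10 were higher in both KO libraries. The median log2 fold change of those 10 was 2.42. DESeq2 called Ngp, Lcn2, S100a8 and S100a9 as higher, and kept each call in 2 of the 4 fits on 3 libraries. In the absence of KO replicate 1 it called Lcn2 alone of these (adjusted p = 4.94e-06), and in the absence of KO replicate 2 it called 0 of the 4. Monocyte markers, summed over 11 genes, had 2576 and 3129 CPM in KO and 2934 and 2112 CPM in WT. These sums overlapped, while the median log2 fold change was 1.45 over the 10 genes tested, 7 of them above 0. Within that list F13a1 (DESeq2 adjusted p = 1.55e-12) and Csf1r (0.0133) rose, Csf1r with an adjusted p of 0.366 in the absence of KO replicate 1, and 5 of 10 tested were higher in both KO libraries. Dendritic cell markers summed to 1797 CPM in KO replicate 1, where Cxcr2, Cxcr4, Ccr2, Cx3cr1 and C5ar1 were also highest. Of the remaining receptors, Ccrl2, Fpr1 and Fpr2 peaked in KO replicate 2, as did the neutrophil and monocyte sums. Ccr1 peaked in WT replicate 2. The other dendritic cell sums were 125 CPM for KO replicate 2 and 76.7 and 35.9 CPM for WT. Cd74, the invariant chain of MHC class II, had 821 and 58.6 CPM in KO and 2.45 and 7.96 CPM in WT, and DESeq2 also called Ciita, H2-Aa and H2-Eb1 as higher. The median log2 fold change of the 6 tested was 5.38, with 5 above 0 and 1 below 0, at -1.29. Of these 6 genes, 4 were higher in both KO libraries. With KO replicate 1 dropped DESeq2 still called Cd74 (log2 fold change 3.50, adjusted p = 0.00174) and H2-Eb1 (0.0318), and no longer Ciita (0.631) or H2-Aa (0.150). With WT replicate 1 dropped it called Ciita alone of the 4 (adjusted p = 0.0070). The dendritic cell markers Siglech and Zbtb46 were at 0.742 and 1.73 CPM in KO replicate 1. In bulk RNA more cells of a type and more RNA per cell cannot be told apart, and the part of these cell types in the receptor values was not tested.

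Marker lists of other lineages summed to at most 258 CPM in any library. Among T and NK genes Cd8a and Ncr1 had 0 counts in all 4 libraries, and Cd3e was at 0.062 CPM or less. The list's sum of 100.2 and 135 CPM in KO and 114 and 70.6 CPM in WT was mostly Nkg7, and Thy1 fell by DESeq2 (adjusted p = 0.00477), to 0.309 and 0.176 CPM in KO, against 9.95 and 1.75 CPM in WT, a call kept in 1 of the 4 fits on 3 libraries. B cell markers summed to 35.8 and 25.7 CPM in KO and 24.1 and 17.9 CPM in WT, with Pax5 at 0.050 CPM or less. Erythroid markers summed to 2.41 and 2.23 CPM in KO and 2.25 and 1.91 CPM in WT, with Hba-a1 and Hbb-bt at 0. Megakaryocyte markers had 24.3 and 48.1 CPM in KO and 34.2 and 130.1 CPM in WT, with Gp6 at 0, and 3 of 4 tested were above 0 in fold change. Itga2b, the exception, had 2.85 and 21.3 CPM in KO and 28.6 and 112 CPM in WT. Mast cell, basophil and eosinophil markers had 106 and 63.8 CPM in KO and 61.9 and 188 CPM in WT, with Prg2 at 151 CPM in WT replicate 2. The stromal and endothelial sum, 72.1 and 154 CPM in KO and 236 and 258 CPM in WT, was nearly all Pecam1, which blood cells also express, with Col3a1 at 0. The leukemic progenitor genes, among them Kit, Myb and Hoxa9, summed to 2465 and 2958 CPM in KO and 2823 and 2896 CPM in WT, and 2 of 7 had a fold change above 0.

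**Figure D3:**
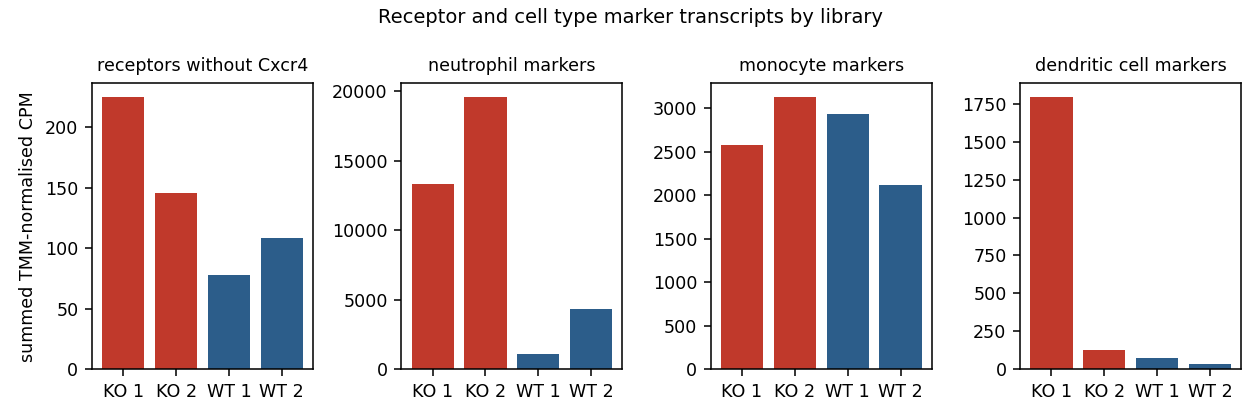
Summed TMM-normalised CPM (vertical axes, from 0) of the receptors without Cxcr4 and of 3 marker lists, 1 bar per library (red KO, blue WT). The receptor sum was 225 and 145 CPM in KO and 78.1 and 108 CPM in WT. The neutrophil sum was 13339 and 19602 CPM in KO and 1101 and 4310 CPM in WT. The monocyte sum overlapped between the groups, at 2576 and 3129 CPM in KO and 2934 and 2112 CPM in WT. The dendritic cell sum was 1797 and 125 CPM in KO and 76.7 and 35.9 CPM in WT.

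The remaining chemokine receptors were close to silent. Of 18 such genes 4 had 0 counts in all libraries, and 2 passed the filter. Ackr4, a scavenger of CCL19 and CCL25, had 2.41 and 3.40 CPM in KO and 2.10 and 2.02 CPM in WT (log2 fold change 0.50, SE 0.58; edgeR adjusted p = 0.923). Ackr2, a scavenger of inflammatory CC chemokines named here after its values were seen, had 0 reads in both KO libraries and 0.650 and 1.17 CPM in WT, at least 5.02-fold lower in KO at a floor of 3 counts per library (DESeq2 adjusted p = 0.170). Around the receptors described here, Ccr1 and Ccr2 share a block of chromosome 9 with Cxcr6, Xcr1, Ccr9, Ccr3 and Ccr1l1, each of which was at or under 0.371 CPM in every library. Cxcr1, which lies 30539 bases from Cxcr2 on chromosome 1, had 0.059 CPM or less.

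Other attractant receptors held a pair that DESeq2 called, where it called 1.56% of 13422 genes as higher. Among 18 genes in the files, 11 were tested, 8 of them above 0, against 6243 of 12623 over all genes tested. The median log2 fold change was 0.37, also with Hrh4, which had no reads in KO, set at its bound. C5ar2, the second C5a receptor, lies 2589 bases from C5ar1 on chromosome 7 and had 30.7 and 17.6 CPM in KO, against 7.65 and 4.40 CPM in WT. Its log2 fold change of 2.00 (SE 0.47; DESeq2 adjusted p = 0.00719, edgeR 0.444) was near that of C5ar1, and the 4 libraries stood in the same order for both genes. DESeq2 lost C5ar2 without KO replicate 1 (adjusted p = 0.561) and without WT replicate 2 (0.187). Ltb4r1, the high-affinity leukotriene B4 receptor, had 228 and 257 CPM in KO, against 90.1 and 105 CPM in WT (log2 fold change 1.31, SE 0.21; DESeq2 adjusted p = 1.27e-04, edgeR 0.444). Its fold change stayed between 1.21 and 1.44 with a library left out, although DESeq2 lost it without WT replicate 1 (adjusted p = 0.294).

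Ligands were mostly absent from these cells. Of 40 chemokines and other attractants 13 were tested, with 8 above 0, against 6243 of 12623 over all genes tested. Their median log2 fold change was 0.48. DESeq2 called 1 gene of this list, where it called 1.56% of 13422 genes as higher. That was C3, the central complement protein, at 1301 and 2184 CPM in KO and 268 and 376 CPM in WT (log2 fold change 2.44, SE 0.36; DESeq2 adjusted p = 5.94e-08), and DESeq2 called it each time a library was left out (4 of 4). Hc, the mouse C5 gene, had 0 reads in KO and 0.050 and 0.106 CPM in WT. The ligands in the next sentences were named after their values were seen, since they bind the receptors above. Cxcl12 was at 0.159 CPM or less in each library. Ccl9, a CCR1 ligand, had 202 and 52.8 CPM in KO and 502 and 218 CPM in WT, lower in both KO libraries (log2 fold change -1.50, SE 0.74; edgeR adjusted p = 0.755, DESeq2 0.333). Mif, which can bind CXCR4 and CXCR2, had 47.7 and 30.3 CPM in KO, against 78.1 and 58.5 CPM in WT (log2 fold change -0.81, SE 0.31; edgeR adjusted p = 0.627). The groups overlapped for the other tested ligands given next, and neither edgeR nor DESeq2 called one of them. Cxcl2, for CXCR2, had 0.804 and 36.9 CPM in KO and 2.05 and 10.7 CPM in WT (log2 fold change 1.56, SE 1.64). Anxa1 had 163 and 400.1 CPM in KO and 61.5 and 314 CPM in WT (0.58, SE 0.84). The log2 fold changes were 0.29 for Ccl3, 0.48 for Ccl6 and 1.03 for Cx3cl1, the fractalkine gene, and -0.13 for Rarres2, which encodes chemerin.

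Downstream of the receptors, 28 of 30 signalling genes were tested, with 19 above 0, against 6243 of 12623 over all genes tested. Their median log2 fold change was 0.20. DESeq2 called 1 of the 28, where it called 1.56% of 13422 genes as higher. That was Pik3r5, which encodes the p101 subunit that ties PI3K-gamma to G proteins. It had 37.4 and 68.6 CPM in KO, against 12.5 and 16.7 CPM in WT (log2 fold change 1.86, SE 0.38; DESeq2 adjusted p = 0.00243, edgeR 0.444). The call was lost without KO replicate 2 (adjusted p = 0.149) and without WT replicate 1 (0.179). Of 15 tested genes listed as damping receptor signalling or clipping ligands, 11 were above 0, with a median of 0.29, and DESeq2 called Dpp4 and Rgs10. Dpp4, a surface protease that clips CXCL12, had 34.4 and 38.7 CPM in KO, against 2.10 and 6.31 CPM in WT (log2 fold change 3.12, SE 0.58; DESeq2 adjusted p = 1.72e-05, edgeR 0.444), with the call kept whichever library was left out (4 of 4). Rgs10, which speeds GTP hydrolysis by inhibitory G proteins, had 38.4 and 29.4 CPM in KO and 13.7 and 16.6 CPM in WT (log2 fold change 1.16, SE 0.29; DESeq2 adjusted p = 0.0383, edgeR 0.444) and was called in 0 of 4 such fits (adjusted p from 0.121 without KO replicate 2 to 0.939 without WT replicate 1).

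**Figure D4:**
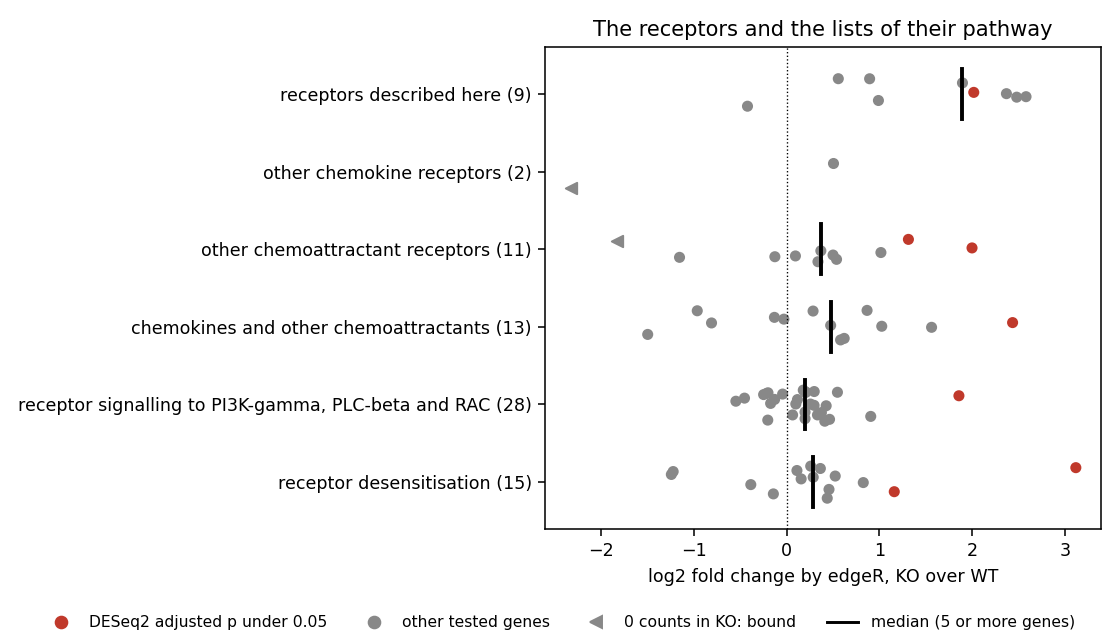
Log2 fold change of KO over WT by edgeR (horizontal axis) for the tested genes of each list, with the number tested in brackets, red where DESeq2 called the gene, triangles for genes without reads in KO placed at their bound, and lines at the median of lists of 5 or more genes. The receptors described here have a median of 1.90, against 0.20 to 0.48 in the 4 lists below them that have a line; the neutrophil and monocyte marker lists, not drawn, have medians of 2.42 and 1.45.

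Some genes followed a receptor closely over the 4 libraries, by Euclidean distance in log2 CPM centred on each gene's mean. Nearest to Cxcr4 were G2e3, Sync and Lrig2, at distances of 0.034 to 0.037. G2e3 had 58.3 and 48.8 CPM in KO and 43.1 and 31.4 CPM in WT. Nearest to C5ar1 were Cnga4, Hsd11b1 and Adam4, at 0.139 to 0.401. Hsd11b1, which encodes an enzyme that activates glucocorticoids, had 74.8 and 54.8 CPM in KO and 20.4 and 10.8 CPM in WT, while Cnga4 and Adam4 had at most 1.79 CPM. With 4 libraries such a rank only describes these samples.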

How the data were processed

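RNA-seq was measured in 4 libraries, 2 per genotype, grouped by the sample titles. The authors deposited raw counts by gene symbol. Build mm10, HTSeq, Picard, MACS2, Bowtie2 2.2.5 and STAR 2.3.0 are listed, without roles, per the submitters' processing notes. Annotation and strand setting: not given in the sources used here. Reads of near-identical copies (Ccr1 and Ccr1l1, the Fpr genes) can be lost or shared, so these counts are uncertain. The 5 closing rows of each file, 69.3% to 72.4% of all counts, were left out of library sizes.

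Analyses used R 4.3.3. Genes kept by filterByExpr were tested by the quasi-likelihood F-test of edgeR 4.0.16 (TMM, robust, Benjamini-Hochberg at 0.05 over all genes tested); SE is the fold change over the square root of F. DESeq2 1.42.0, on the 16651 genes with a count (13422 received an adjusted p), and voom of limma 3.58.1 were alternatives, with other scalings, no filter, a replicate block and each library left out. In fits with 1 library left in a group, that library was taken to vary as the other group does. Log2 CPM used a prior count of 2. The fits were tested on simulated data.

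The members and lists were chosen with earlier results of these data known. All members were named; of each list the genes called by edgeR, else by DESeq2, else the 2 of highest CPM (a few genes that this would name are not reported here); and the 3 genes nearest to the most counted member and to the one of smallest p. Coordinates are from RefSeq GRCm38.p6 by symbol (23204 symbols matched). Replicates differed beyond counting noise (chi-square over its degrees of freedom: 113 in KO, 83.8 in WT). Levels per length and the 4 chromatin accessibility samples were not analysed here.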

Additional observations from a re-analysis of the deposited data

How the results depend on the processing

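Of the 9 receptors, 8 kept their direction in 14 of 14 alternatives. Ccr2 did so in 12 and ran from -0.039 to 1.46 with 1 library left out; it was -0.039 by edgeR and -0.030 by DESeq2 without KO replicate 1. Library sizes alone in place of TMM shifted the median of all genes by -0.064 on the log2 scale. Among the 9, edgeR called 0, DESeq2 1 (C5ar1), voom 0 and the fit with a replicate block 0; with 1 library left out the calls ran from 0 to 3, and edgeR called Cx3cr1 without WT replicate 2. Over all genes, edgeR called 0, with 968 at an unadjusted p under 0.05, voom called 0, with 935, DESeq2 called 352 genes, edgeR without the filter 4 and edgeR with the replicate block 11. With 1 library left out the counts ran from 0 to 156 by edgeR (50 without WT replicate 1, 156 without WT replicate 2) and from 162 to 390 by DESeq2 (178 without KO replicate 1, 384 without KO replicate 2, 162 without WT replicate 1, 390 without WT replicate 2). The deviations of same-numbered libraries from their group means correlated at 0.191 over 12623 genes; the labels tie the numbers to nothing, so the libraries may share only a number. The count of receptors with both KO libraries above both WT libraries was 6 to 7 with a library left out. By its definition it could not fall below 6, so it is no check of stability. It was chosen after seeing the data, like the check of the marker gene calls. The planned order of the receptors by level per length was not run, as exon lengths were not used here. Precision is limited by having 2 libraries per group, and for Fpr1 also by depth, at 5 reads in WT replicate 1.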
